A study of Mus musculus with 14 samples.

Results

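Among 8 primary lines of mouse embryonic fibroblasts, 2 stood apart by the transcript level of Hoxd13, the 5′-most gene of the Hoxd cluster. A line was called Hoxd13-high when its deposited counts held more than 100 Hoxd13 counts in 1000000 (CPM) and Hoxd13-low otherwise, which gave 2 high and 6 low lines of 14 samples in the series. The fibroblasts were grown from E13.5 mouse embryos after the head and the internal organs had been taken away. Lines were wild type (WT, 3 lines) or carried a knockout-first allele of H3f3a, a gene of the histone variant H3.3 (KO, 5 lines). The high lines were WT MEFs 2 and KO MEFs 3, the low lines were WT MEFs 1 and 3 and KO MEFs 1, 2, 4 and 5, and no line was treated. The lines are independent and each gave 1 library of transcript 3′ ends, though no label says whether they came from separate litters. The other 6 samples were neurospheres from embryo heads. The groups were made from these libraries and are not groups of the study, so a p-value below describes how closely a gene follows the split, not the effect of any treatment.

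Hox genes encode homeobox transcription factors that lie in clusters in the order in which they are used along the body axis. Genes of the anterior and central groups are used in the trunk, and genes of the last groups, at the 5′ end of each cluster, in the tail end, the genital tubercle and the distal limb. Fibroblasts keep much of the Hox pattern of the place they came from when they are grown in culture. In the limb, Hoxd13 and Hoxa13 pattern the hand and foot plate, while Tbx4 and Pitx1 are hindlimb genes and Tbx5 is a forelimb gene.

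Hoxd13, which defined the split, reached 253 CPM in the WT line and 207 CPM in the KO line, from 695 and 431 reads. The low lines held 4.04 to 30.8 CPM, with WT MEFs 1 the highest of them, so that no line lay between 30.8 and 207 CPM. The groups were chosen by these values, so no test of them is given. In the 6 neurosphere lines Hoxd13 and Penk had 0 counts and Tbx4 had 1. Hoxd13 (ENSMUSG00000001819.4) lies on chromosome 2 from 74668310 to 74671599 on the plus strand of GRCm38. Its start region is shown because the whole split rests on this gene. The window runs from 250 bases before the RefSeq start to 50 bases after it (chr2:74667975-74668274, plus strand, GRCm38.p6), with TATAAA on either strand in capitals.
Hoxd13: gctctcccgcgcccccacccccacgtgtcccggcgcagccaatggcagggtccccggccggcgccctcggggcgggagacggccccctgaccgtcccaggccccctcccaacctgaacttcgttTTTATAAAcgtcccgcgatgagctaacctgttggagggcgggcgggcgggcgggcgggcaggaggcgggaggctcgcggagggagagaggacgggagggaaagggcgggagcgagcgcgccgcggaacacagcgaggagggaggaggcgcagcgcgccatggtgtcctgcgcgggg
The capitals hold TATAAA and, overlapping it, its reverse complement, and begin 126 bases before the start.

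The lines differed far beyond Hoxd13. Of 10534 genes tested with genotype as covariate, 2759 (26.2%) followed the split at an adjusted p under 0.05, 1335 higher (12.7%) and 1424 lower (13.5%) in the high lines. At least 2-fold differences made up 729 of the higher and 670 of the lower calls, and 57 and 45 were at least 16-fold. Both high lines lay above every low line for 2022 genes (19.2%) and below every low line for 2084 (19.8%). With Hoxd13 left out, the first principal component held 56.4% of the variance and put the high lines at 75.0 and 68.3 and the low lines between -29.6 and -19.4. The number of calls was 1391 without WT MEFs 2 and 1422 without KO MEFs 3. List counts below cover members with a mean of at least 10 counts over the 8 lines, which some pass through the high lines alone, so they describe the lists and stand against these shares of all genes. From here on, levels are CPM scaled by TMM factors, of 2 values for the high lines the first is WT MEFs 2 and the second KO MEFs 3, and log2 differences are high minus low with their standard error (SE). Among the genes called and given with values, Pcdha12 and Ifit1 had overlapping groups, and for every other one both high lines lay on 1 side of all 6 low lines.

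Library measures overlapped between the groups. Gene counts were 2743999 in WT MEFs 2 and, least of the 8 lines, 2081058 for KO MEFs 3 against 2655595 to 3296493 in the low lines (exact two-sided permutation p = 0.107, where 0.0357 is the smallest p that 2 against 6 lines allow). Mitochondrially encoded transcripts took 5.27% to 5.74% of counts in the high and 5.49% to 6.15% in the low lines (exact permutation p = 0.357). H3f3a followed the labels, with 833 to 1418 CPM in WT and 7.17 to 18.5 CPM in KO lines, and was the 1 gene called for genotype in this fit. Y-linked genes had 5 and 0 counts in the high lines, 1 to 2 counts in 3 low lines and 811 to 944 counts in the 3 others. The 5 lines with 50 or fewer counts of the Y-linked gene Ddx3y are taken as the lines without Y-linked counts. Among these 5 alone, 2089 genes were called, of which 1959 were among the 2759, each in the same direction. Since these are bulk libraries, a lower level may be fewer cells of a type or less RNA per cell, and the 2 cannot be told apart.

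The Hox genes divided by cluster and by position. Of 10 tested genes of groups 9 to 13 other than Hoxd13, 7 were higher in the high lines, and these were the Hoxa and Hoxd members. The other 3, Hoxb9, Hoxc9 and Hoxc10, were lower. At a mean of at least 50 counts, 6 were tested, with 3 higher and 3 lower. Of 15 tested genes of groups 1 to 8, 10 were lower and 0 higher, and these 10 belonged to Hoxb and Hoxc. The median log2 difference of all 15 was -1.81, against 0.01 over all genes tested. Without WT MEFs 2, 6 of the 15 were called lower.

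Hoxa13, the partner of Hoxd13 in the distal limb and genital tubercle, was at 50.05 and 48.2 CPM in the high lines and 1.35 to 5.92 CPM, median 3.84 in the low lines. Both high lines lay far above every low line, a 12.95-fold difference (log2 3.695 ± 0.32 SE, adjusted p 3.27e-06). Hoxa10 had 168 and 136 CPM in the high and 32.8 to 49.6 CPM, median 41.8 in the low lines (log2 1.88 ± 0.17 SE, adjusted p 4.49e-06). Hoxa9 and Hoxa11 were 2.57-fold and 3.28-fold higher (log2 1.36 ± 0.20 SE, adjusted p 0.000301 and log2 1.72 ± 0.24 SE, adjusted p 0.000152). The log2 difference was larger for Hoxa13 than for its 3 neighbours, a comparison that was not tested, and Hoxa3, Hoxa5 and Hoxa7 were not called (log2 -0.06, -0.45 and -0.49).

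In the Hoxd cluster the neighbours of Hoxd13 went with it. Hoxd12 had 10.7 and 13.99 CPM against 0 to 3.903 CPM, median 1.26 (log2 2.99 ± 0.63 SE, adjusted p 0.00325), and Hoxd11 had 47.9 and 35.7 CPM against 7.85 to 14.1 CPM, median 8.66 (log2 1.97 ± 0.21 SE, adjusted p 1.75e-05). Hoxd10 was at 16.4 and 8.68 CPM against 0.683 to 7.21 CPM, median 3.22 (log2 1.71 ± 0.52 SE, adjusted p 0.0259). Evx2, the homeobox gene beyond Hoxd13 at the end of the cluster, was at 32.2 and 27.5 CPM in the high lines and 0 to 3.51 CPM, median 0.921 in the low lines (log2 4.48 ± 0.55 SE, adjusted p 8.26e-05). Hoxd8, nearer the other end of the cluster, was not called, with 16.4 and 8.201 CPM against 7.75 to 21.1 CPM, median 11.9 (log2 -0.12 ± 0.40 SE, adjusted p 0.864). Hoxd12 was no longer called without KO MEFs 3 (adjusted p 0.179), nor Hoxd10 without either high line or without WT MEFs 1 (adjusted p 0.0978, 0.283 and 0.0503).

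Hoxb9 was the Hoxb gene with the widest gap among those tested, at 1.43 and 7.24 CPM in the high and 30.1 to 50.3 CPM, median 46.7 in the low lines, 10.5-fold lower (log2 -3.39 ± 0.39 SE, adjusted p 3.82e-05). Hoxc10, a gene of the lumbar trunk and hindlimb, was at 1.43 and 2.89 CPM against 15.2 to 31.1 CPM, median 25.9 (log2 -3.53 ± 0.42 SE, adjusted p 4.82e-05). Hoxc9 and Hoxc6 were 7.33-fold and 4.87-fold lower, and Hoxb3 and Hoxb8 were 4.27-fold and 4.496-fold lower. WT MEFs 2 had less Hoxb9, Hoxc6, Hoxc9 and Hoxc10 than KO MEFs 3, which in turn lay below all 6 low lines for each of them. Hoxc8 showed a smaller difference, 25.7 and 26.5 CPM against 39.4 to 86.1 CPM, median 78.8 (log2 -1.39 ± 0.25 SE, adjusted p 0.00102). The annotated span of Hoxc5 overlaps Hoxc6, Hoxc8, Hoxc9 and Hoxc10 on the same strand, so reads may be split between them. Hoxb13, Hoxc11, Hoxc12, Hoxc13 and Hoxd9 had too few counts to test, at most 4.80 CPM in any line.

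**Figure D1:**
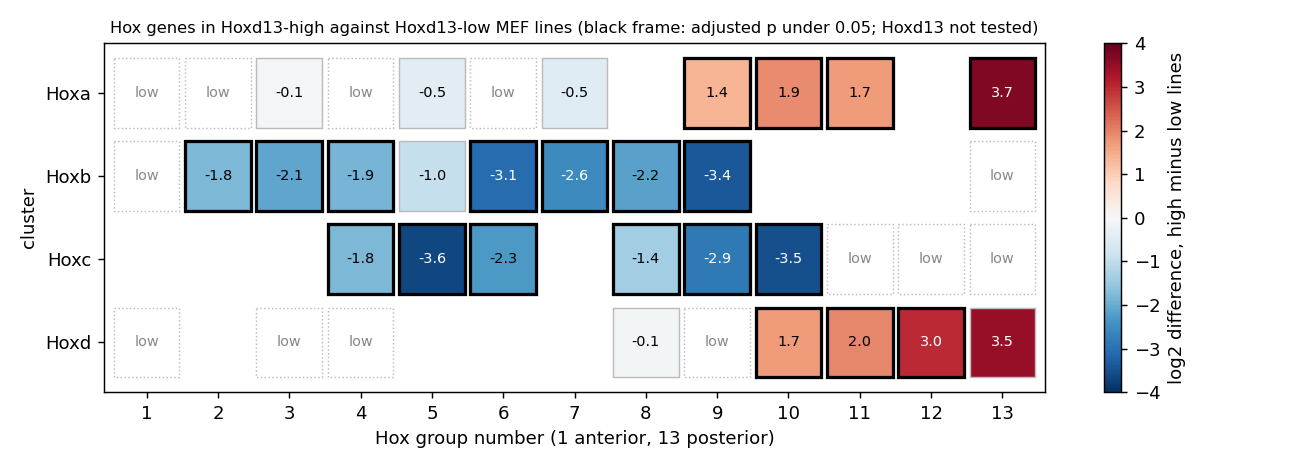
Log2 difference between Hoxd13-high and Hoxd13-low fibroblast lines for each Hox gene in the files, by cluster (rows) and group number (columns); red is higher and blue lower in the high lines, a black frame marks an adjusted p under 0.05, and "low" marks genes with too few counts to test. Framed red cells lie at groups 9 to 13 of Hoxa and Hoxd, and framed blue cells run along Hoxb and Hoxc. Hoxd13 was used to choose the lines, so its cell has no black frame and its test is not given.

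Both hindlimb and forelimb genes were among the higher genes. Tbx4, a hindlimb T-box gene that was named with the rule, was at 82.6 and 67.1 CPM in the high lines and 3.303 to 6.63 CPM, median 5.76 in the low lines (log2 3.803 ± 0.25 SE, adjusted p 3.18e-07). Pitx1, which acts upstream of Tbx4, was at 27.9 and 24.1 CPM against 5.71 to 8.196 CPM, median 6.85 (log2 1.903 ± 0.27 SE, adjusted p 0.000163). Neither gene's groups overlapped. Tbx5, the forelimb T-box gene, was uneven between the high lines, with 6.08 CPM in WT MEFs 2, 35.7 CPM in KO MEFs 3 and 1.56 to 5.39 CPM, median 3.99 in the low lines (log2 2.47 ± 0.48 SE, adjusted p 0.00189). WT MEFs 2 lay just above KO MEFs 2, the highest low line at 5.39 CPM, and without KO MEFs 3 Tbx5 was not called (adjusted p 0.414). Isl1, a gene of the early hindlimb field, had at most 2.89 CPM in any line and was not tested.

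**Figure D2:**
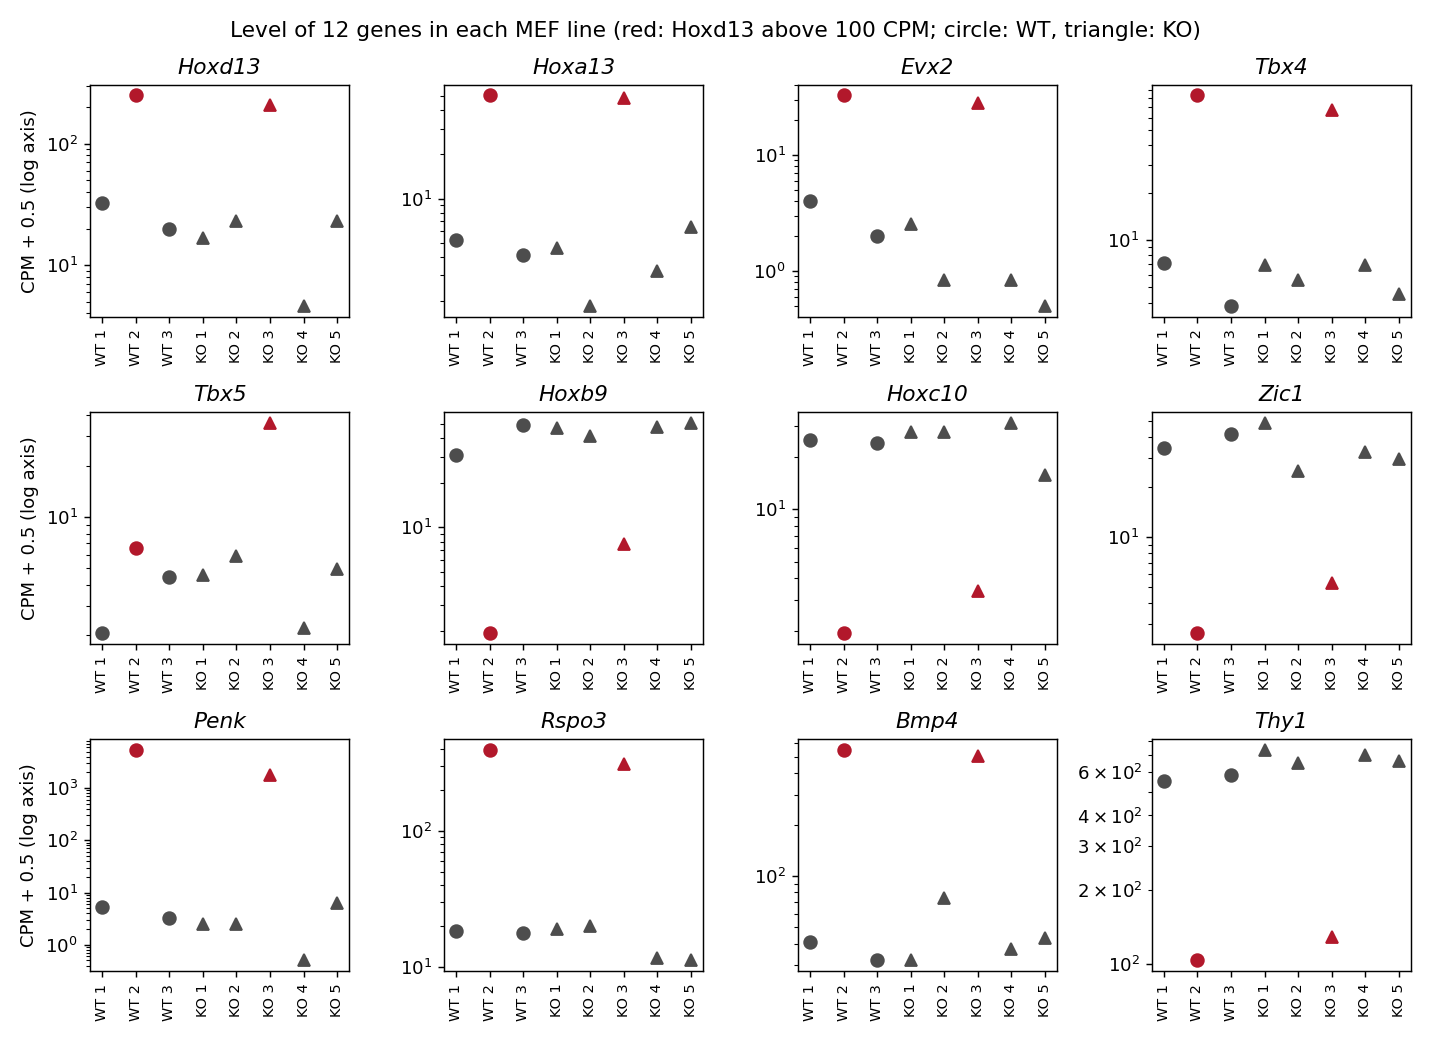
Level of 12 genes in each of the 8 fibroblast lines, as TMM-scaled CPM plus 0.5 on a log axis; circles are WT and triangles KO lines, and red marks the Hoxd13-high lines. The red points lie above all grey points for Hoxd13, Hoxa13, Evx2, Tbx4, Tbx5, Penk, Rspo3 and Bmp4 and below them for Hoxb9, Hoxc10, Zic1 and Thy1.

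Of 36 listed transcription factors of the limb bud 22 were tested, of which 11 were higher and 6 lower in the high lines, with a median log2 difference of 0.22. At a mean of at least 50 counts, 15 were tested and 6 went each way. Without WT MEFs 2 the lower calls were 2, and without KO MEFs 3 the higher calls were 7. Osr1, a zinc-finger factor of limb connective tissue, was at 212 and 152 CPM against 22.8 to 35.7 CPM, median 30.7 (log2 2.61 ± 0.19 SE, adjusted p 6.39e-07). Prrx2, a homeobox gene of limb mesenchyme, was at 156 and 190.1 CPM against 30.3 to 56.97 CPM, median 35.9 (log2 2.19 ± 0.18 SE, adjusted p 1.75e-06), whereas its relative Prrx1 was not called (693 and 922 CPM against 828 to 1147 CPM, median 988). Lmx1b, which marks dorsal limb mesenchyme, Lhx2 and the BMP target Msx1 were 9.34-fold, 21.02-fold and 15.2-fold higher, and were chosen for mention after their values were seen. Lower members included Twist2, a factor of dermal mesenchyme, at 51.5 and 50.7 CPM against 128 to 162 CPM, median 144 (log2 -1.47 ± 0.15 SE, adjusted p 1.59e-05). Shox2, a gene of the proximal limb also named after its values were seen, was 3.66-fold lower (log2 -1.87 ± 0.33 SE, adjusted p 0.00203), with an adjusted p of 0.0518 without WT MEFs 2.

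Trunk and proximal mesenchyme factors were mixed as well, with 4 higher and 5 lower of 17 tested, and 3 lower without WT MEFs 2. Zic1, a zinc-finger gene of the dorsal neural tube and somites, was at 2.14 and 4.82 CPM in the high lines and 24.6 to 48.3 CPM, median 33.02 in the low lines (log2 -3.38 ± 0.41 SE, adjusted p 4.84e-05). Meis1, whose product marks the proximal limb, was at 3.22 and 4.82 CPM against 19.6 to 34.03 CPM, median 22.7 (log2 -2.61 ± 0.37 SE, adjusted p 0.000178), and Meis2, named after its values were seen, was 1.68-fold lower, though not called without WT MEFs 2 (adjusted p 0.125). Foxp2, a forkhead factor, went the other way, at 125 and 115 CPM against 3.41 to 11.9 CPM, median 7.46 (log2 3.99 ± 0.26 SE, adjusted p 3.69e-07). Tbx18 was also higher, though unevenly, with 54.3 CPM in WT MEFs 2 and 105 CPM in KO MEFs 3 against 17.4 to 28.5 CPM, median 24.1 (log2 1.77 ± 0.24 SE, adjusted p 0.000135). Of 4 tested genes listed for the genital tubercle and tail bud, 2 were higher and 0 lower, Eya1 was not called, and the tail bud genes T, Cdx1, Cdx4, Msgn1, Fgf8 and Wnt3a had no count in any line.

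The genes with the widest gaps are given next. Penk, the precursor of the enkephalin opioid peptides and a gene named with the rule, was at 5412 CPM in WT MEFs 2 and 1774 CPM in KO MEFs 3, against 0 to 5.92 CPM, median 2.37 in the low lines (log2 9.99 ± 0.45 SE, adjusted p 1.44e-05). WT MEFs 2 had more of it than KO MEFs 3, and both stood far above every low line. Abi3bp, an extracellular matrix protein, was at 1202 and 766 CPM against 3.41 to 11.6 CPM, median 5.89 (log2 7.14 ± 0.25 SE, adjusted p 1.05e-07). Cxcl15, a chemokine, was at 373 and 118 CPM against 0 to 1.36 CPM, median 0.469 (log2 8.47 ± 0.39 SE, adjusted p 1.29e-07). Dio3, the deiodinase that inactivates thyroid hormone, was at 182 and 123 CPM against 0 to 1.02 CPM, median 0.536 (log2 7.88 ± 0.32 SE, adjusted p 6.99e-09). Ism1, a secreted isthmin, and Galnt13, a glycosyltransferase, were at 116 and 105 CPM and 247 and 220.5 CPM, and no low line exceeded 1.37 CPM of Ism1 or 3.603 CPM of Galnt13.

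A pair of genes near the top of the order rested largely on WT MEFs 2. Reln, a secreted guidance protein, was at 59.7 CPM in WT MEFs 2 and 4.82 CPM in KO MEFs 3, and at 0 counts in 5 of the 6 low lines. Pcdha12, a clustered protocadherin, was at 37.5 CPM in WT MEFs 2 and had 0 counts in KO MEFs 3 and in every low line, so its groups overlap and its call ends without WT MEFs 2. Its last exons are shared with the other Pcdha genes.

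At the other end, 8 of the genes named had 0 counts in both high lines. Tfpi2, a protease inhibitor of the matrix, had 14.6 to 35.1 CPM, median 30.2 in the low lines and was at least 45.8-fold lower in the high lines, where a count of 0 is read as up to 3 counts over both lines (adjusted p 1.3e-05). Lrp2, the endocytic receptor megalin, had 4.504 to 18.2 CPM, median 14.4 in the low lines and was at least 20.1-fold lower (adjusted p 0.00198). Wt1, a gene of the mesothelium and kidney primordium, was at least 8.88-fold lower (adjusted p 0.0044), and Lif, a cytokine of the interleukin 6 family, at least 9.82-fold (adjusted p 0.0131). Wt1 was not called without KO MEFs 3 (adjusted p 0.054), nor Lif without either high line. Crabp1, which binds retinoic acid in the cytoplasm, was at 5.36 and 9.17 CPM against 271 to 627 CPM, median 418 (log2 -5.94 ± 0.60 SE, adjusted p 0.000544). Mdk, the growth factor midkine, was at 0.357 and 0.965 CPM against 18.9 to 53.4 CPM, median 32.02 (adjusted p 0.000377).

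**Figure D3:**
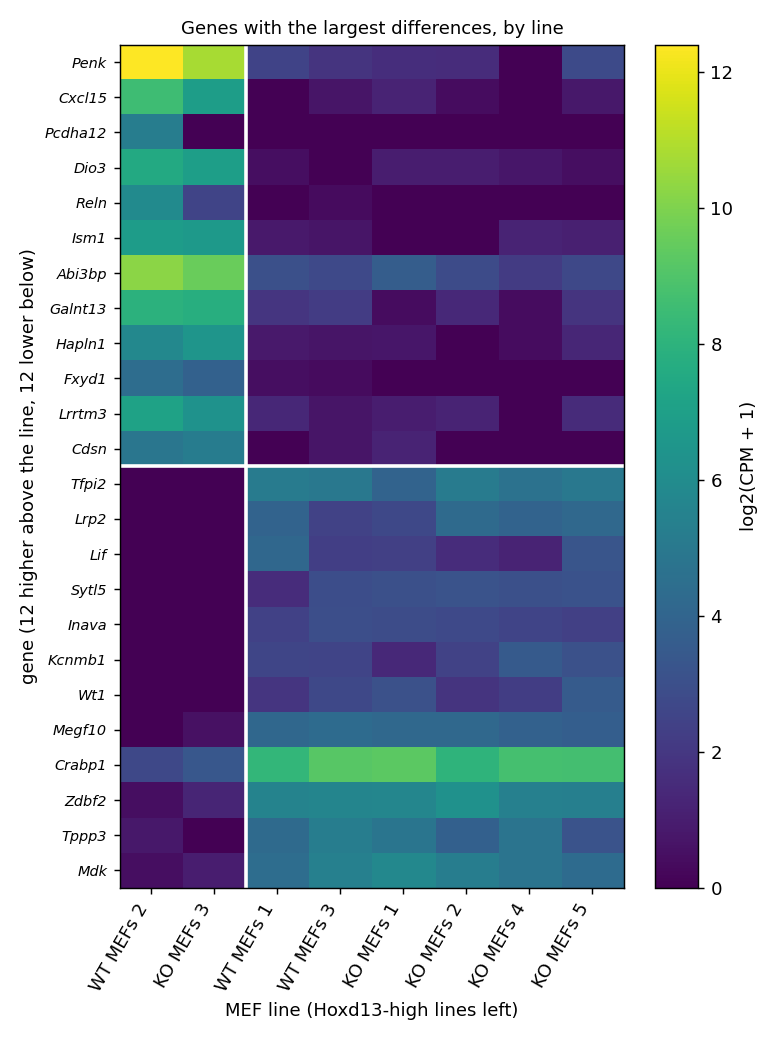
Levels of the 24 genes with the largest log2 differences, as log2 of TMM-scaled CPM plus 1, in the 2 high lines (left of the white line) and the 6 low lines; 12 genes higher in the high lines are above the white line and 12 lower ones below it. Pcdha12 is dark in KO MEFs 3 as in all low lines, and Tfpi2, Lrp2, Lif, Sytl5, Inava, Kcnmb1 and Wt1 are at 0 in both high lines.

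Start regions of Cxcl15 and Dio3 are shown because, like that of Hoxd13, they hold the letters TATAAA, and because no low line exceeded 1.36 CPM of either transcript. They run from 250 bases before to 50 after the RefSeq start on GRCm38.p6, at chr5:90794284-90794583 on the plus strand for Cxcl15 and chr12:110278980-110279279 on the plus strand for Dio3, with TATAAA in capitals.
Cxcl15: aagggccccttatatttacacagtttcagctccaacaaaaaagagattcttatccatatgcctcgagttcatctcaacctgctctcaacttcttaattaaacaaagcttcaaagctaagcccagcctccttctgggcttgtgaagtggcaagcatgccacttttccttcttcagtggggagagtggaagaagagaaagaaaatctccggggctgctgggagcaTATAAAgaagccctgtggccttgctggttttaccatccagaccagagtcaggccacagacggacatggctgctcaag
Dio3: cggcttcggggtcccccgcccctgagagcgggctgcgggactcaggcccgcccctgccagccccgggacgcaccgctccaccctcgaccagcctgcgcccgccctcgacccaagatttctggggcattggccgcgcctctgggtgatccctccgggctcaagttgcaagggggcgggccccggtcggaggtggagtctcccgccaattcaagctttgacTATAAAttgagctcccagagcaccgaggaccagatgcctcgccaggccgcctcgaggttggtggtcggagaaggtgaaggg
In these windows TATAAA begins 27 and 31 bases before the start. Of 8226 tested genes with a RefSeq window, TATAAA on either strand was found in 11.1% of the 1055 genes called higher, 9.60% of the 1083 called lower and 8.56% of all, and in 13.6% of all 32851 windows. A gene counts where any of its windows holds the letters, so the share of all windows is in another unit. A match describes letters, not a site in use.

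Bone morphogenetic protein (BMP) genes, whose ligands shape the limb skeleton and interdigital tissue, had 8 higher and 3 lower members of 24 tested, and 1 lower without KO MEFs 3. Of the ligands, Bmp4 was at 549.8 and 507 CPM in the high lines and 31.3 to 73.8 CPM, median 38.7 in the low lines (log2 3.67 ± 0.27 SE, adjusted p 2.47e-05). KO MEFs 2, at 73.8 CPM, stood above the other low lines but far below both high lines. Gdf6, a ligand of joint formation, was at 197 and 187 CPM against 3.74 to 14.8 CPM, median 4.17 (log2 5.01 ± 0.37 SE, adjusted p 1.81e-05), and Gdf10 at 71.1 and 48.7 CPM against 1.01 to 5.07 CPM, median 1.31 (log2 4.68 ± 0.36 SE, adjusted p 1.55e-06). The intracellular inhibitor Smad6 was at 156 and 126 CPM against 12.6 to 31.01 CPM, median 16.3 (log2 2.98 ± 0.27 SE, adjusted p 1.38e-05). Id3 was also called higher, while Id1, Id2, Id4, Smad7 and Bambi, tested members of the same list, were not called. Of the secreted antagonists, Grem1 was not called (197 and 283 CPM against 121 to 299 CPM, median 164) and Nog was among the higher members. The activin subunit gene Inhba was among the lower members.

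Hedgehog signalling genes had 4 higher and 0 lower members of 9 tested. Cdon, a co-receptor, was at 123 and 130.3 CPM against 15.9 to 43.2 CPM, median 23.2 (log2 2.39 ± 0.26 SE, adjusted p 5.67e-05), and Ptch1, the receptor and a target of the pathway, at 36.5 and 27.02 CPM against 5.78 to 14.8 CPM, median 10.2 (log2 1.598 ± 0.30 SE, adjusted p 0.00155). The co-receptor genes Boc and Gas1 were also called (log2 1.36 ± 0.31 SE, adjusted p 0.00549 and log2 2.300 ± 0.56 SE, adjusted p 0.032). Both calls ended without WT MEFs 2 (adjusted p 0.210 and 0.185). Gas1 was called without KO MEFs 1 or KO MEFs 4, and without any other 1 line its adjusted p was 0.0569 to 0.186. The transcription factor Gli3 was not called (59.3 and 46.8 CPM against 37.8 to 52.6 CPM, median 42.3).

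Of 17 tested fibroblast growth factor (FGF) genes, 3 were higher and 7 lower, with 5 higher without KO MEFs 2. The receptor gene Fgfr2 was at 254 and 345 CPM against 9.899 to 36.1 CPM, median 18.7 (log2 3.95 ± 0.31 SE, adjusted p 3.4e-05), while Fgfr1 was 1.85-fold lower, at 175 and 163 CPM against 265 to 352 CPM, median 313 (log2 -0.89 ± 0.13 SE, adjusted p 0.000236). The annotated span of Fgfr2 covers many neighbouring genes, so its count depends on how reads were divided among transcripts. Of 8 tested targets and feedback inhibitors, Etv4, Dusp6, Spry1, Spry2 and Spry4 were lower, and Etv5, Spred1 and Spred2 were not called (log2 -0.13, -0.11 and -0.699). Etv4 had 0.357 and 0.965 CPM in the high lines and 15.3 to 34.5 CPM, median 22.8 in the low lines (adjusted p 2.3e-05). Dusp6 was at 15.4 and 11.1 CPM against 56.1 to 135 CPM, median 102 (log2 -2.92 ± 0.38 SE, adjusted p 0.000402), and the ligand gene Fgf10 was 6.67-fold higher (log2 2.74 ± 0.44 SE, adjusted p 0.00135), both named after their values were seen. Fgf10 was not called without KO MEFs 3 (adjusted p 0.0621). Flrt2, an FGF receptor partner, was at 86.5 and 140.4 CPM against 678 to 959 CPM, median 762 (log2 -2.77 ± 0.20 SE, adjusted p 1.11e-06).

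Wnt pathway genes had 9 higher and 2 lower members of 21 tested, with a median log2 difference of 0.76. Rspo3, an R-spondin that strengthens Wnt receptors, was at 391 and 310.2 CPM in the high lines and 10.7 to 19.6 CPM, median 17.7 in the low lines (log2 4.405 ± 0.18 SE, adjusted p 6.99e-09). Its relative Rspo2 was at 322 and 138 CPM against 0.341 to 9.76 CPM, median 5.84, and Sfrp2, a secreted Wnt modulator, at 1824 and 586 CPM against 4.68 to 34.7 CPM, median 10.3 (adjusted p 0.000375 and 0.0029), both named after their values were seen. The receptor gene Fzd8 was 7.45-fold higher (log2 2.898 ± 0.21 SE, adjusted p 6.13e-07). The secreted antagonists went opposite ways, Dkk2 2.21-fold higher (log2 1.15 ± 0.15 SE, adjusted p 9.39e-05) and Frzb at 0.357 and 0.965 CPM against 7.42 to 11.5 CPM, median 9.68 (adjusted p 0.000303). Axin2, a common target of the pathway, was not called, with 8.22 and 7.72 CPM against 1.37 to 9.19 CPM, median 2.87. Without WT MEFs 2 the higher members numbered 6. Without KO MEFs 3, 5 were higher and 1 lower, and without KO MEFs 1 or KO MEFs 2, 4 were lower.

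Retinoid genes had 4 higher and 4 lower members of 10 tested, and the members differed by step. Cyp26b1, which degrades retinoic acid in the distal limb bud, was at 125 and 117 CPM against 19.1 to 46.3 CPM, median 31.5 (log2 1.89 ± 0.24 SE, adjusted p 0.000156), and Dhrs3, a retinal reductase, at 26.1 and 35.7 CPM against 1.56 to 4.72 CPM, median 3.52 (log2 3.38 ± 0.30 SE, adjusted p 4.49e-06). The receptor gene Rarg was 2.69-fold higher (log2 1.43 ± 0.16 SE, adjusted p 2.31e-05). Of the synthesis genes, Aldh1a3 was 4.49-fold lower and Aldh1a2 was at 0.715 and 0 CPM against 2.73 to 7.21 CPM, median 5.298 (adjusted p 0.000646 and 0.00315), both named after their values were seen. Rdh10, also a synthesis gene, was called higher, so these genes went both ways. Of the binding protein genes, Crabp1 was lower and Crabp2 was not called.

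Guidance molecules went both ways, with 4 higher and 2 lower of 14 Eph and ephrin genes and 4 higher and 3 lower of 19 semaphorin genes, where 12.7% and 13.5% of all genes were called. Both lower Eph calls depended on single lines, with 0 left without WT MEFs 1 or KO MEFs 3 and 1 without WT MEFs 2 or KO MEFs 1, and 1 semaphorin gene was lower without KO MEFs 3. Epha7, an Eph receptor, was at 89.01 and 69.95 CPM against 6.83 to 15.2 CPM, median 9.93 (log2 2.78 ± 0.19 SE, adjusted p 4.57e-07), and its ligand gene Efna5 was 3.36-fold higher (log2 1.75 ± 0.18 SE, adjusted p 1.31e-05). Sema3d, a secreted repellent, was at 292 and 145 CPM against 2.697 to 13.3 CPM, median 8.86 (log2 4.57 ± 0.36 SE, adjusted p 3.12e-05), and Sema3a and Sema3c were 3.62-fold and 3.05-fold higher. Plxna4, a semaphorin receptor, was at 1.79 and 0.965 CPM against 5.85 to 20.1 CPM, median 10.4 (log2 -2.85 ± 0.59 SE, adjusted p 0.00289), with an adjusted p of 0.0843 without KO MEFs 3. Beside Penk, the peptide hormone genes Adm (adrenomedullin, 5.92-fold, log2 2.57 ± 0.25 SE, adjusted p 2.69e-05) and Stc1 (stanniocalcin, 2.31-fold, log2 1.21 ± 0.24 SE, adjusted p 0.0022) were higher, and Ucn2 and Edn1 were lower, of 7 tested, with 1 lower without either high line.

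In the insulin-like growth factor axis, 3 of 11 tested genes were higher and 4 lower, with 2 lower without either high line. Igfbp4, a binding protein, was at 1235 and 1044 CPM against 109.9 to 223 CPM, median 168 (log2 2.77 ± 0.20 SE, adjusted p 9.47e-06), and Igfbp2 was at 306 CPM in WT MEFs 2 and 135 CPM in KO MEFs 3 against 14.8 to 29.3 CPM, median 18.9 (log2 3.27 ± 0.22 SE, adjusted p 7.38e-07). Igfbp7 was 2.46-fold lower (log2 -1.296 ± 0.13 SE, adjusted p 1.09e-05). The growth factor gene Igf2, named after its values were seen, was at 90.4 and 164 CPM against 580.05 to 1437 CPM, median 814 (log2 -2.81 ± 0.46 SE, adjusted p 0.0058), with an adjusted p of 0.0733 without WT MEFs 2 and 0.0509 without KO MEFs 3. Igf2r, the receptor that clears its product, was at 241 and 249 CPM against 351 to 552 CPM, median 510.1 (log2 -1.001 ± 0.16 SE, adjusted p 0.000529).

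Matrix genes differed member by member. Of 23 tested collagen chains, 7 were higher and 9 lower with a median log2 difference of -0.05, and the main fibril gene Col1a1 was not called, with 4974 and 7939 CPM against 5025 to 7102 CPM, median 5918. Col7a1, of the anchoring fibrils under skin, was at 0.715 and 0.965 CPM against 19.2 to 36.2 CPM, median 24.8 (log2 -5.002 ± 0.52 SE, adjusted p 1.55e-05), and Col4a1, of basement membranes, was 3.05-fold lower (log2 -1.61 ± 0.17 SE, adjusted p 1.55e-05). Col6a1 and Col8a2 were 2.45-fold and 6.06-fold higher. Tnc, the matrix protein tenascin C, was at 560.2 and 587 CPM against 1666 to 2121 CPM, median 2027 (log2 -1.76 ± 0.13 SE, adjusted p 9.23e-07), and Loxl2, a collagen cross-linking enzyme, at 128 and 170.3 CPM against 751 to 1016 CPM, median 793 (log2 -2.48 ± 0.17 SE, adjusted p 3.69e-07). Omd, a small proteoglycan, was at 63.3 and 80.6 CPM against 1.201 to 5.07 CPM, median 2.44 (log2 4.798 ± 0.33 SE, adjusted p 4.27e-07). Eln, the elastin gene, and Ogn were 12.8-fold and 19.7-fold higher, and Has2, a hyaluronan synthase, was 14.7-fold lower, all of them named after their values were seen. Eln was not called without either high line (adjusted p 0.0616 without WT MEFs 2 and 0.0907 without KO MEFs 3). Among the 35 tested matrix genes other than collagens, 10 were higher and 7 lower.

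The lines of both groups carried fibroblast transcripts. Of 16 tested fibroblast and mesenchyme markers, 1 was higher, 3 were lower and 12 were not called, where 12.7% and 13.5% of all genes were called higher and lower. The calls were thus about as frequent as over all genes. The summed level of the list was 7084 to 7193 CPM in the high and 7102 to 8403 CPM in the low lines, which says nothing of single markers. Thy1, a surface protein used to sort fibroblasts, was among the lower members, at 103 and 128 CPM in the high lines and 549 to 738 CPM, median 658 in the low lines (log2 -2.44 ± 0.12 SE, adjusted p 4.81e-08). Pdpn, the surface protein podoplanin, was 3.11-fold lower (log2 -1.64 ± 0.31 SE, adjusted p 0.00399), though not without either high line (adjusted p 0.0722 and 0.0595), and Mfap5 was 2.05-fold higher, though not without WT MEFs 2 (adjusted p 0.103). Pdgfra, a receptor of mesenchymal cells, was not called, with 94.4 and 154 CPM against 37.9 to 109.9 CPM, median 60.3.

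Skeletal tissue genes were uneven. Of 16 listed cartilage markers 5 had enough counts to test, and 4 of these were higher, among them the transcription factor genes Sox5 (61.1 and 102 CPM against 0.674 to 13.3 CPM, median 3.804) and Sox6 (31.5 and 46.3 CPM against 1.201 to 5.73 CPM, median 3.01) and Hapln1, which links aggrecan to hyaluronan (53.98 and 86.4 CPM against 0 to 1.48 CPM, median 0.641). Hapln1 passed the count filter only through the high lines, with 330 counts there and 11 in the low lines. Such members can be tested only where they are high, so the count of 4 describes the list. At a mean of at least 50 counts, 2 were tested and 2 were higher. Sox9 was 2.19-fold higher (log2 1.13 ± 0.28 SE, adjusted p 0.0183), but not without WT MEFs 2 (adjusted p 0.207) or KO MEFs 2 (0.0502), and Sox5 was not called without KO MEFs 3 (adjusted p 0.0590). The structural cartilage gene Col2a1 had 5.72 CPM in WT MEFs 2 and 38.6 CPM in KO MEFs 3 against 0.681 to 10.1 CPM, median 5.71 and was not called, and Acan reached at most 8.20 CPM. Tnmd, a tendon membrane protein, was at 8.22 and 6.75 CPM against 57.01 to 141 CPM, median 92.8 (log2 -3.59 ± 0.39 SE, adjusted p 6.57e-05), Fmod was 4.98-fold higher (log2 2.32 ± 0.38 SE, adjusted p 0.000934), and the tendon factor gene Scx was not called. Of the bone markers, Runx2 was tested and not called, and Alpl, Ibsp, Dmp1, Bglap and Bglap2 had no count in any line.

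Of 14 tested contractile genes of smooth muscle and myofibroblasts 3 were lower and 0 higher, where 13.5% of all genes were lower. DESeq2 called 5 lower and 1 higher, voom and the fit without KO MEFs 4 also called 1 higher, and the lower calls were 5 without WT MEFs 3 and 6 without KO MEFs 1. Acta2, smooth muscle actin, was at 1284 and 1253 CPM against 2518 to 3941 CPM, median 2909 (log2 -1.198 ± 0.16 SE, adjusted p 0.000138), and Actg2 at 16.4 and 12.1 CPM against 64.99 to 156 CPM, median 99.7 (log2 -2.79 ± 0.38 SE, adjusted p 0.000528). Tagln was 1.92-fold lower (log2 -0.94 ± 0.27 SE, adjusted p 0.0371) and was not called without either high line (adjusted p 0.101 and 0.321), nor without WT MEFs 1, KO MEFs 4 or KO MEFs 5 (adjusted p 0.0571 to 0.0898). Of 3 tested fat cell genes, 2 were higher. Pparg, the master regulator of fat cells, was at 61.1 and 27.02 CPM against 0.337 to 3.75 CPM, median 1.59 (log2 4.48 ± 0.53 SE, adjusted p 0.000128) and Fabp4 at 85.1 and 53.1 CPM against 1.17 to 8.85 CPM, median 4.09 (log2 3.92 ± 0.44 SE, adjusted p 0.000118). The other tested gene, Lpl, was not called and went opposite ways, with a log2 difference of 1.97 for WT MEFs 2 and -1.23 for KO MEFs 3 from the low lines of their genotype. Adipoq, a gene of mature fat cells, had at most 1 count per library.

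Marker genes of other cell types were compared by their summed level. Defining epithelial genes were near 0, with Epcam at most 1.45 CPM and Cdh1 at most 3.41 CPM in any line, 1 of 3 tested members, Sfn, was called lower (adjusted p 0.0131), and the summed level of the 16 epithelial markers was 18.8 to 21.8 CPM in the high and 20.4 to 51.1 CPM in the low lines. The 14 endothelial markers summed to 13.9 to 16.4 CPM against 20.8 to 40.1 CPM, with Sox17, Tie1 and Cldn5 at 0, and 0 of the 2 tested were called (1 lower in DESeq2 and without WT MEFs 3, KO MEFs 1 or KO MEFs 2). Skeletal muscle markers summed to 15.4 to 23.6 CPM against 31.6 to 89.95 CPM, with Myod1, Myf5, Tnnc2 and Ckm at 0, and 1 of 3 tested members, Tnnt2, was called lower (adjusted p 0.0239). Neither Sfn nor Tnnt2 was called without WT MEFs 2, nor Tnnt2 without KO MEFs 3, and 2 muscle members were lower without KO MEFs 1. The 12 neural crest markers summed to 33.3 to 34.0 CPM against 17.1 to 30.3 CPM, with 0 of 3 tested members called (1 higher without KO MEFs 1 or KO MEFs 4). Of 5 tested mesothelial and urogenital markers, Nr2f2 was 1.66-fold higher and Wt1 and Gata6 were lower, the latter not without WT MEFs 1 or 2 or KO MEFs 3, 4 or 5 (adjusted p 0.0547 to 0.243). Macrophage and blood markers summed to 243 CPM in WT MEFs 2 and 23.2 CPM in KO MEFs 3 against 24.2 to 138 CPM, with the 5 listed globin genes at 0 and 0 of 8 tested members called (1 lower in DESeq2 and without KO MEFs 4, 1 higher without KO MEFs 2). Whether these cells have a part in the differences was not tested.

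Neuron markers were called in both directions, 2 higher and 3 lower of 6 tested. Map2, a microtubule protein of dendrites, was at 145 and 79.6 CPM against 8.19 to 13.1 CPM, median 9.25 (log2 3.42 ± 0.22 SE, adjusted p 2.93e-07), and Syt1, a vesicle protein, at 21.1 and 11.6 CPM against 0 to 1.802 CPM, median 0.5403 (log2 4.41 ± 0.57 SE, adjusted p 9.09e-05). Tubb3, a neuronal tubulin whose reads can also be assigned to an overlapping gene on its strand, was 6.005-fold lower (log2 -2.59 ± 0.30 SE, adjusted p 6.57e-05), and Gap43 was 3.87-fold lower, though not without WT MEFs 2 (adjusted p 0.0913). Elavl3, Snap25 and Dcx had no count in any line, and the summed level of the list was 126 to 188 CPM in the high and 132 to 164 CPM in the low lines.

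Genes of the late cell cycle tended to be higher, with 18 of 34 tested G2 and M phase genes called higher, 0 lower and 33 on the positive side, at a median log2 difference of 0.65. The summed level of the list overlapped between the groups, at 6543 to 7295 CPM in the high and 3782 to 6556 CPM in the low lines. Top2a, topoisomerase of dividing cells, was at 1061 and 1158 CPM in the high lines and 504 to 819.5 CPM, median 548 in the low lines (log2 0.96 ± 0.15 SE, adjusted p 0.000439). Mki67, the proliferation marker, was at 466 and 542 CPM against 203 to 404 CPM, median 250.5 (log2 0.97 ± 0.18 SE, adjusted p 0.00172), and Nusap1, a spindle protein, was 2.63-fold higher (log2 1.397 ± 0.21 SE, adjusted p 0.000279). KO MEFs 2 was the highest low line for each of these 3 genes. The count of 18 was 5 without WT MEFs 2, 6 without KO MEFs 3, 29 without KO MEFs 2 and 7 in lines without Y-linked counts. Of 29 S phase genes 0 were called, with 4 higher without KO MEFs 2, 3 without KO MEFs 3 and 1 without KO MEFs 5.

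Of 22 cell cycle inhibitors and p53 targets, 4 were higher and 5 lower, where 12.7% and 13.5% of all genes were called. Without KO MEFs 3 these counts were 2 and 2, without WT MEFs 2 the lower calls were 3, and without KO MEFs 4 or KO MEFs 5 the higher calls were 2. Cdkn2c and Cdkn1b, inhibitors of cyclin-dependent kinases, were at 49.3 and 31.8 CPM and 105 and 102 CPM against 4.81 to 10.2 CPM, median 6.78 and 35.5 to 57.7 CPM, median 54.5 (log2 2.42 ± 0.24 SE, adjusted p 9.04e-06 and log2 1.05 ± 0.17 SE, adjusted p 0.000506). Pmaip1, a p53 target that promotes cell death, was at 10.01 and 9.65 CPM against 42.8 to 114 CPM, median 63.6 (log2 -2.85 ± 0.31 SE, adjusted p 2.89e-05). Ccng1, another p53 target, was 1.89-fold lower (log2 -0.92 ± 0.16 SE, adjusted p 0.000744), and Cdkn1a and Mdm2 were among the lower genes.

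Most calls among sugar and sterol metabolism genes were lower. Of 21 tested glycolysis and hypoxia genes, 14 were lower and 1, Adm, was higher, with a median log2 difference of -0.70. Hk2, the first enzyme of glycolysis, was at 7.51 and 7.24 CPM against 31.98 to 60.1 CPM, median 46.8 (log2 -2.66 ± 0.30 SE, adjusted p 2.62e-05), Gapdh at 354 and 414 CPM against 702 to 855 CPM, median 831 (log2 -1.08 ± 0.12 SE, adjusted p 2.85e-05), and the glucose transporter gene Slc2a1 at 41.8 and 53.1 CPM against 104 to 149 CPM, median 114 (log2 -1.32 ± 0.19 SE, adjusted p 0.000184). Of 25 cholesterol synthesis genes, 11 were lower and 0 higher, and 24 lay on the negative side. Msmo1, a sterol methyl oxidase of the pathway, was at 125 and 107 CPM against 215 to 269.9 CPM, median 251 (log2 -1.12 ± 0.14 SE, adjusted p 5.32e-05). Without WT MEFs 2 the lower calls were 7 in each of these lists, and without KO MEFs 3 they were 11 and 4.

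Chemokine and inflammatory genes had 3 higher and 7 lower members of 18, with 4 lower without either high line and 1 higher without KO MEFs 3. Cxcl12, a stromal chemokine, was at 892 and 808 CPM against 157 to 214 CPM, median 189 (log2 2.18 ± 0.12 SE, adjusted p 8.95e-08). Ccl2, which attracts monocytes, was at 38.3 and 28.9 CPM against 109 to 196 CPM, median 137 (log2 -2.09 ± 0.26 SE, adjusted p 0.000142), and the adhesion gene Vcam1 was 2.799-fold lower (log2 -1.48 ± 0.14 SE, adjusted p 5.15e-06). Of 15 tested interferon-stimulated genes 3 were called, all higher, with 8 without KO MEFs 2 and 1 without WT MEFs 1, 2 or 3 or KO MEFs 5. Ifit1, an antiviral RNA-binding protein, rested on WT MEFs 2, with 40.04 CPM there against 4.34 CPM in KO MEFs 3 and 0 to 5.07 CPM in the low lines, and was not called without it (adjusted p 0.587). With any 1 of the low lines WT MEFs 1, WT MEFs 3 and KO MEFs 5 left out, its adjusted p was 0.0632 to 0.110. Ifit2 was 2.14-fold higher (log2 1.098 ± 0.24 SE, adjusted p 0.00406), with an adjusted p of 0.141 without KO MEFs 3. WT MEFs 2 also had the highest macrophage marker sum, 243 CPM, and whether such cells have a part in these values was not tested.

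**Figure D4:**
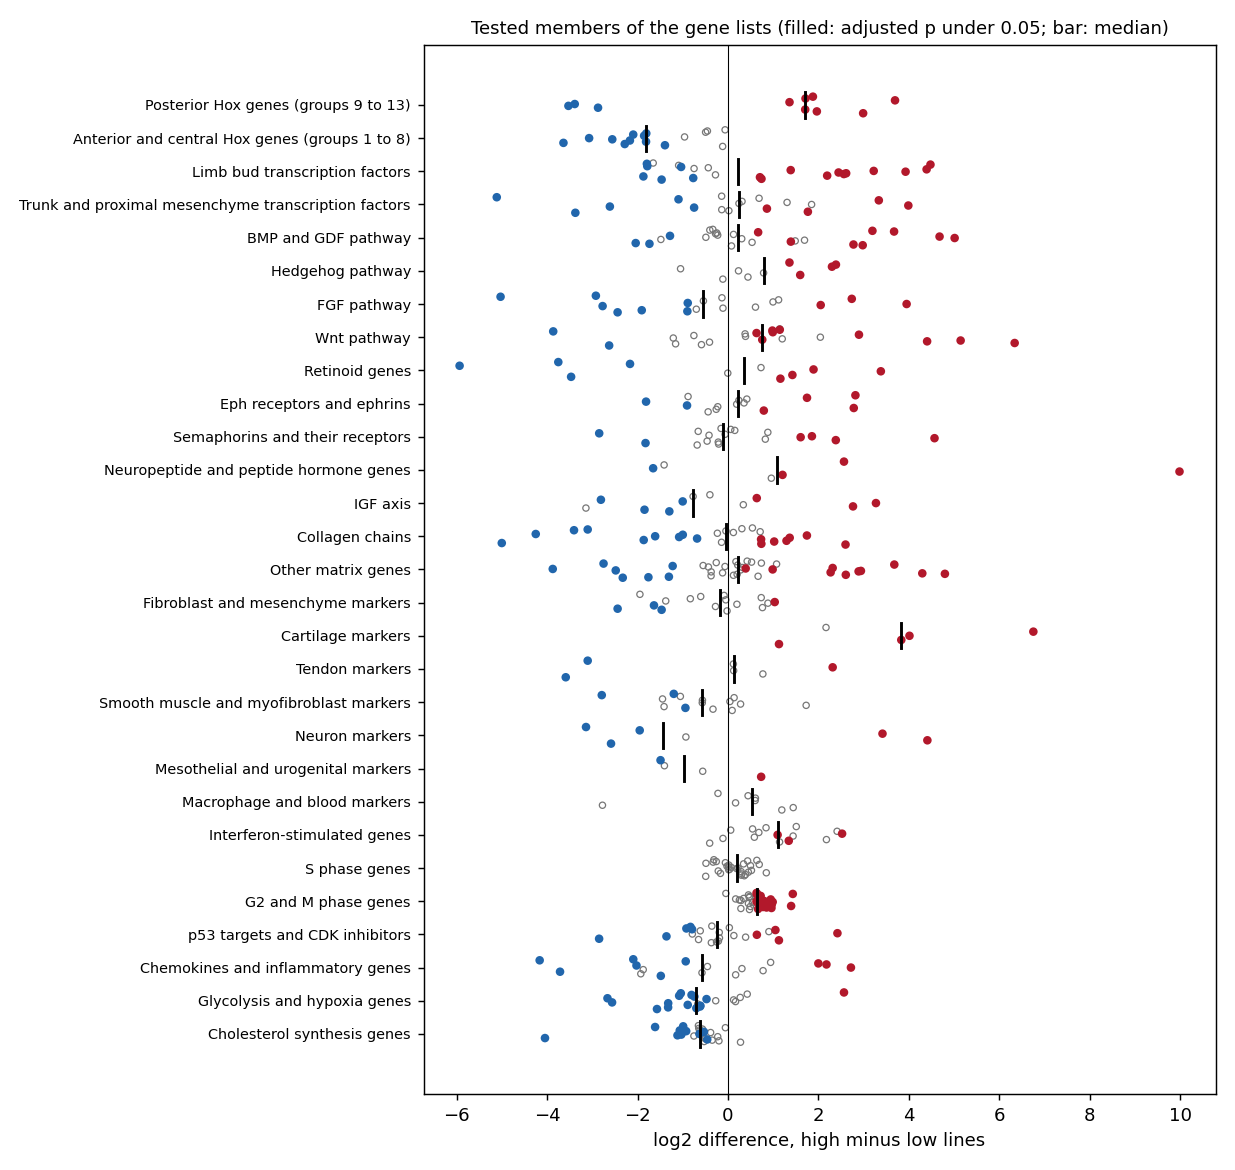
Log2 difference between high and low lines for each tested member of the gene lists with at least 5 tested genes; filled points passed an adjusted p under 0.05 (red higher, blue lower), open points did not, and bars are medians. Genes with 0 counts in 1 group, such as Wt1, Lif and Ucn2, have no fitted value here; filled points of 1 direction fill the right of G2 and M phase genes and the left of cholesterol synthesis genes.

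Zic1 serves as the example of a lower gene whose start region holds CACGTG, the motif whose share differed most between lower and higher genes among 8 motifs searched. Beside these letters and TATAAA, the search covered the AP-1 motif TGANTCA, the TEAD motif CATTCC, the Hox group 13 motif CAATAAA and its variant TCGTAAA, the cyclic AMP response motif TGACGTCA and the palindrome TTCGAA, each on both strands with overlapping matches allowed. Its window (chr9:91365719-91366018, minus strand, GRCm38.p6, printed 5′ to 3′ along the gene) is given with CACGTG in capitals, 98 bases before the start.
Zic1: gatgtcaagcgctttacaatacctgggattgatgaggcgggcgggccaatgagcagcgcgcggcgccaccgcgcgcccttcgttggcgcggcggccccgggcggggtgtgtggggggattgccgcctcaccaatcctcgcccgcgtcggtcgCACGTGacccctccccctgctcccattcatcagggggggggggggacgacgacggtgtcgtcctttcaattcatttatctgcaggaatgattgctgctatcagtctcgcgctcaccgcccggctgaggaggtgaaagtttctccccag
CACGTG, which reads the same on both strands, was found for 16.8% of genes called lower, 9.57% of those called higher and 12.1% of all tested genes with a window. Of all windows, 7.15% held it. A gene counts where any of its windows holds the motif, so the gene shares and the window share are in unlike units. The shares are a description, chosen after they were seen, and carry no test.

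Since 1 high line was WT and the other KO, the split could be read in each genotype, and these contrasts have no library in common. The genes read were not chosen apart from the lines, since the count filter used the mean over all fibroblast lines. A gene could thus pass the filter through its level in the line in which it was read. Both high lines were also picked by Hoxd13. The shares below are therefore a description and not an independent check, and the shares of all genes beside them passed the same filter. In WT, 350 genes were at least 4-fold higher in WT MEFs 2 than in WT MEFs 1 and 3, and 312 of them (89.1%) were at least 2-fold higher in KO MEFs 3 than in the other KO lines, against 8.84% of all genes. Of 261 genes at least 4-fold lower, 221 (84.7%) were at least 2-fold lower in KO, against 8.93%. Chosen in KO, 285 of 296 higher genes (96.3%, against 10.6% of all) and 199 of 249 lower genes (79.9%, against 8.75%) went the same way by at least 2-fold in WT. Across the 10534 genes, which are not independent, the differences in the 2 genotypes had a Pearson correlation of 0.773 and a Spearman correlation of 0.682. Each of these differences rests on 1 high line and has no replicate check.

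**Figure D5:**
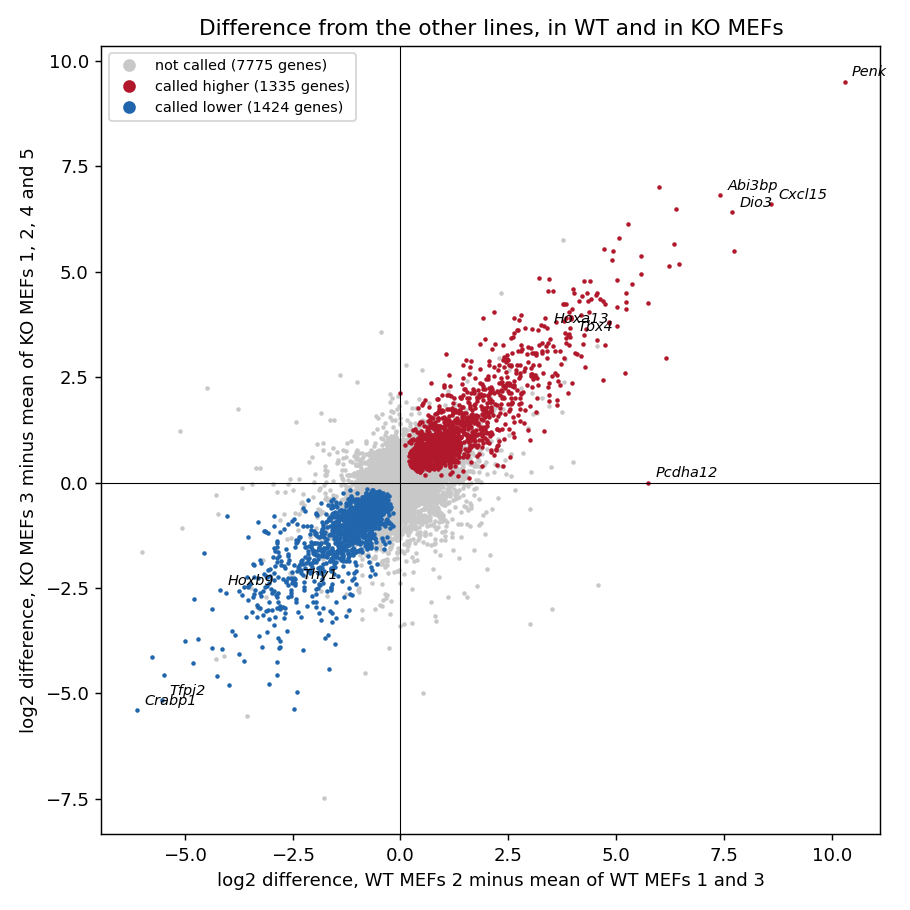
Log2 difference of WT MEFs 2 from the other WT lines (horizontal) and of KO MEFs 3 from the other KO lines (vertical) for 10534 genes; red and blue are genes called higher and lower over all 8 lines. Penk, Cxcl15, Dio3 and Abi3bp lie at the upper right, Crabp1 and Tfpi2 at the lower left, and Pcdha12 lies on the horizontal axis.

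The test of an unequal difference in WT and KO, an interaction of genotype and split, called 0 genes in edgeR (0% of 10534, with 466 at an unadjusted p under 0.05 and a smallest adjusted p of 0.0557). DESeq2 called 2, Lpl and Slc38a1, with 256 at an unadjusted p under 0.05. Lpl, lipoprotein lipase, was at 215 CPM in WT MEFs 2 and 25.1 CPM in KO MEFs 3, on either side of the low lines at 41.3 to 84.04 CPM, median 58.9. Each genotype has 1 high line, so spread in this test comes from the low lines alone. The lack of calls therefore does not show that differences were equal in WT and KO. Pcdha12 was not called here either, at 37.5 CPM in WT MEFs 2 and 0 in KO MEFs 3.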

How the data were processed

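The authors deposited Salmon 1.1.0 expected counts and TPM values per transcript, per the submitters' processing notes and the file headers; TPM was not used, and no source used here gives the transcript set, genome build or strand setting. Transcript IDs were matched to GENCODE M21 (GRCm38): of 116945 per file, 115638 matched by version and 385 by ID, and the 922 others, 0.239% to 0.400% of reads, were left out. Counts were summed per gene and rounded, giving 2081058 to 3296493 per MEF library. The floor of 3 counts covers counting error alone; no label names molecular identifiers.

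The 8 MEF lines were fitted with edgeR 4.0.16 in R 4.3.3 (TMM, robust quasi-likelihood test, genotype as covariate, a mean of at least 10 counts, Benjamini-Hochberg adjusted p under 0.05). Hoxd13 was in the fit and in the p adjustment but is left out of all counts of tested and called genes. Contrasts within a genotype used a prior count of 2. The split, the 38 gene lists and the marker genes were chosen with earlier results of these data known, so they are not independent evidence. Named were Tbx4, Penk, the 12 largest calls each way with at least 5 CPM, up to 4 calls per list by p, and all tested posterior Hox and limb type genes, and 15 further calls after their values were seen. List members not called were also named after that. Col4a1, Omd, Tagln, Nusap1, Gapdh, Igfbp7, Bmp4 and Zic1 overlap a gene on the other strand. Some genes that this rule names are not reported here. The edgeR fit was checked on simulated counts with known fold changes. Alternatives were RLE size factors, DESeq2 1.42.0, limma 3.58.1 voom, other filters, an FDR of 0.1, no genotype term, a replicate block and each line left out, and, added after the data were seen, a Y-linked covariate, the lines without Y-linked counts and a filter by split. Promoter windows are from RefSeq; no entry was matched for Penk.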

Additional observations from a re-analysis of the deposited data

Results flagged for a closer look

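Among the 6 low lines, 1 line lay apart from the rest for 16 of 157 measures looked at, where chance gives about 1 in 20. KO MEFs 2 was the highest of the low lines for Zdbf2 (76.2 CPM), Smad6 (31.0 CPM), Bmp4 (73.8 CPM), Acta2 (3941 CPM), Top2a (819.5 CPM) and Mki67 (404 CPM), and the lowest for Gapdh (702 CPM). For Smad6, Bmp4, Top2a, Mki67 and Gapdh this line lay on the side of the high lines, and for Acta2 and Zdbf2 it lay farther from them than the other low lines did. WT MEFs 1 was the lowest for Sytl5 (1.95 CPM), Hoxc8 (39.4 CPM) and Cdkn1b (35.5 CPM) and the highest for Pmaip1 (114 CPM). WT MEFs 3 was the highest for Reln (0.300 CPM, from 1 count) and the lowest for Sema3c (24.9 CPM). KO MEFs 1 was the highest for Rarg (57.5 CPM) and Sfrp2 (34.7 CPM), and KO MEFs 5 for Gdf6 (14.8 CPM).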

How the results depend on the processing

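Over 8 fits with other normalisation, tests, filters or thresholds or no genotype term, 2214 to 3608 genes were called, against 2759. Leaving out 1 line gave 1391 to 2950 calls, 630 to 1438 higher and 724 to 1512 lower, with the low ends set by leaving out WT MEFs 2 (1391, 667 higher and 724 lower) or KO MEFs 3 (1422, 630 higher and 792 lower). With the Y-linked covariate 2234 genes were called, and in the lines without Y-linked counts 2089. Every gene called both in one of these fits and in the main one had the same direction. A replicate block with genotype gave 1377 calls, 670 higher and 707 lower, of which 1302 were among the 2759. No label says that a number marks a shared litter or day, so the block was not the reported fit. KO MEFs 4 and KO MEFs 5 share their numbers with no other line. Under the block they therefore add nothing to the split, and less is left to measure spread. The deviations of same-numbered WT and KO lines correlated at 0.05, -0.29 and -0.62, but the pairs numbered 2 and 3 set a high line against a low one, so the split enters there and the pair numbered 1 alone bears on pairing. Under the block, 4 G2 and M phase, 6 glycolysis and 4 cholesterol genes were called, against 18, 14 and 11.

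Of 2848 refits of named genes, 2749 kept direction and call, 98 lost the call, and 1 did not keep its direction, Pcdha12 without WT MEFs 2 (log2 0, adjusted p 1, against up to 9.76 without another line). Genes whose split difference was unequal in WT and KO numbered 2 in DESeq2 and 0 to 1 with 1 line left out. The share of genes chosen in WT that went the same way in KO was 94.6% at a mean of at least 50 counts and 79.7% to 87.7% with 1 low line left out. The difference in genes detected, high minus low, was -159.2 and ran from -426.7 to 108.3 with 1 line left out, the latter without KO MEFs 3, the least deep library (exact permutation p = 0.857). With 2 high lines, 1 of them at 2081058 counts, low-count genes such as Isl1 and Hoxc12 could not be tested.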
